A study of Homo sapiens with 6 samples.

Results

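This account covers 10 genes for amino acid transporters of the plasma membrane in T24 cells, a long-established human line derived from bladder carcinoma. The genes are SLC7A5, SLC3A2, SLC1A5, SLC1A4, SLC7A1, SLC7A2, SLC38A1, SLC38A2, SLC1A3 and SLC6A14. They were taken by name from the 56303 genes in the deposited count table, which held all 10, and all 10 had enough counts to be tested. One group of 3 samples was transfected with the control siRNA siNC and the other group of 3 with siFBXL6, an siRNA against the F-box gene FBXL6, for 48 h. All 6 samples were wild-type T24 cells grown in RPMI medium with serum and carried 1 batch label. Which of the 2 FBXL6 siRNAs of the study was used is not given in the sources used here, and the numbers in the sample names were taken as replicate numbers. The study numbers its FBXL6 siRNAs in the same way, so whether the libraries labelled siFBXL6 share 1 siRNA cannot be told from the labels. Nothing in the labels says that the replicates came from separate cultures, so the p-values measure the spread between these samples, which may be technical. The comparison asks which transcripts differ after transfection with siFBXL6.

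Amino acid transporters carry amino acids across the cell surface, some by exchange and some together with sodium. SLC7A5 works only as a pair with the heavy chain SLC3A2, and this pair brings leucine and other large neutral amino acids into cells, in many tumors including urothelial ones at high level. Several transporter genes are transcribed more strongly when amino acids are scarce, through the factor ATF4 and its C/EBP partners.

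The libraries labelled siNC held 58646515, 60967902 and 56814946 counts, and those labelled siFBXL6 held 60968158, 60898556 and 60754015. Within each label, the spread between libraries exceeded counting noise (chi-square per degree of freedom 2.85 to 6.24). After removal of genes with too few counts, 21298 genes entered the quasi-likelihood test of edgeR with p-values adjusted by Benjamini-Hochberg, and a gene was called at an adjusted p under 0.05. Levels are given as CPM, counts relative to library size, scaled by TMM factors, and as RPKM, which is CPM per kilobase of exon and serves to compare genes. Fold changes are siFBXL6 over siNC.

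FBXL6 itself, the gene targeted, did not set the groups apart. Its counts were 362, 414 and 398 under the siNC label and 398, 344 and 350 under the siFBXL6 label. The fitted difference was a log2 fold change of -0.13 (standard error 0.0875, edgeR adjusted p = 0.247), and the values of the labels overlapped (p = 0.2 in an exact permutation test, two-sided). Exons of SLC52A2 on the opposite strand share 31.7% of its exon bases and those of GS1-393G12.13 on the same strand 5.30%, and whether the counting used the strand is not given in the sources used here. For this reason the groups are called the libraries labelled siNC and labelled siFBXL6, and every direction given is one between labels.

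Both common reference genes were read in the same way. ACTB had 1157, 1151 and 1196 CPM in the libraries labelled siNC and 1197, 1148 and 1160 CPM in those labelled siFBXL6, and the groups overlapped. GAPDH had 195, 185 and 185 CPM against 661, 655 and 653 CPM, a log2 fold change of 1.80 (standard error 0.0302, edgeR adjusted p = 4.9e-31). RP5-940J5.9 on the opposite strand shares 14.2% of the exon bases of GAPDH. GAPDH was higher in each of the 3 libraries labelled siFBXL6, while ACTB did not pass the test.

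The markers of epithelial and urothelial cells were present in part. KRT7, the most abundant of the 18, had a mean of 1011 CPM, but UPK1A, a uroplakin of the urothelial surface, was at 0 in every library, and UPK1B, UPK3A and KRT20 had too few counts to test. The 18 genes summed to 4116, 3989 and 4102 CPM in the libraries labelled siNC and to 3663, 3651 and 3664 CPM in those labelled siFBXL6. Of the 14 tested, 2 were called higher (TP63 and CDH1, the latter named after its value was seen) and 8 lower in the libraries labelled siFBXL6, where 20.5% of all genes tested were higher and 19.8% lower. KRT5, a basal keratin, fell from 437 to 313 CPM (log2 fold change -0.48, standard error 0.0283, edgeR adjusted p = 7.84e-16). KRT8 and the transcription factor GATA3 were also lower, with log2 fold changes of -0.29 and -0.53, and TP63 was higher at 0.18. The median log2 fold change of the 14 was -0.15, against -0.0071 over all genes tested.

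Markers of other cell types were far lower. The 8 fibroblast markers summed to 76.3, 81.1 and 78.0 CPM in the libraries labelled siNC and to 64.5, 64.2 and 61.5 CPM in those labelled siFBXL6, and none was at 0 in all libraries. COL1A1 was the most abundant in the mean over both labels, but THY1 was above it in each siNC library. THY1 and COL1A1 were called lower, at log2 fold changes of -0.51 and -0.15, the other 6 were not called (PDGFRA -0.25 and COL3A1 -0.25), and the median was -0.25. The 8 immune markers summed to between 1.21 and 2.19 CPM in every library, with CD14 the most abundant, and none of the 4 tested was called (median -0.36). Over the 6 endothelial markers the sums were 3.16, 2.74 and 3.08 CPM under the siNC label and 4.13, 3.31 and 4.26 CPM under the siFBXL6 label, without overlap; KDR was the most abundant in the mean over both labels and PECAM1 under the siFBXL6 label. Of 5 endothelial markers tested, PECAM1, named after its value was seen, was called higher (log2 fold change 1.28, edgeR adjusted p = 4.4e-05), KDR and VWF were not (0.15 and -0.015), and the median was 0.15. The part of the epithelial, fibroblast and endothelial differences in the transporter differences was not tested. In bulk RNA, fewer cells that carry a transcript and less of it per cell cannot be told apart.

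Among the 10 transporters, 7 were called, where 40.2% of all genes tested were called. The 10 were chosen with earlier results of these data known, so their shares are not independent of the data. In the libraries labelled siFBXL6, 6 were higher (SLC3A2, SLC1A5, SLC1A4, SLC7A1, SLC38A1 and SLC38A2), against 20.5% of all genes, and 1 was lower (SLC1A3), against 19.8%. SLC7A5, SLC7A2 and SLC6A14 were not called. A change of at least 1.5-fold besides the call was seen for SLC1A4 (higher, as for 4.28% of all genes) and SLC1A3 (lower, as for 3.14%). The 3 libraries of each label did not overlap for 6 genes that were higher, against 24.3% of all genes, and for 1 that was lower, against 23.9%. The median log2 fold change of the 10 was 0.16, and the median size was 0.26 against 0.18 over all genes. These medians include SLC6A14, not called, at a log2 fold change of 0.82 from 4 to 16 counts a library. Small differences passed in genes with many counts, as for SLC3A2 at 0.091. An exact permutation test of 3 samples against 3 gives no p below 0.1, and each of the 7 called transporters had that value.

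**Figure D1:**
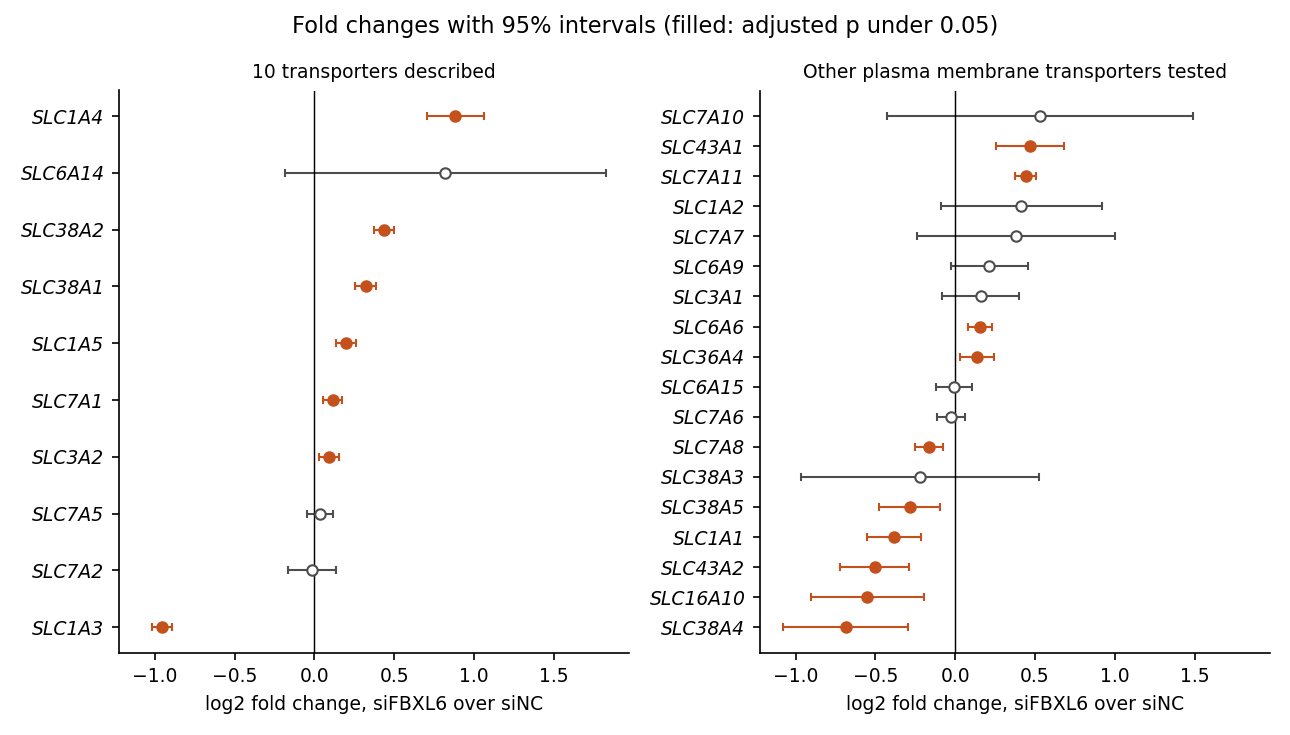
Log2 fold change of siFBXL6 over siNC on the horizontal axis, with 95% intervals, for the 10 transporters (left) and for the 18 other plasma membrane amino acid transporters tested (right); filled points have an adjusted p under 0.05. SLC1A4 at 0.88 and SLC1A3 at -0.95 stand at the ends of the called genes on the left, and the right side has 4 filled points above 0 and 6 below.

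System L, the exchanger of large neutral amino acids, was represented by the light chain SLC7A5 and the heavy chain SLC3A2. SLC7A5 forms the pore, and SLC3A2 takes light chains to the cell surface. SLC7A5 (GRCh38, chr16:87830023-87869488, minus strand) had 427, 519.7 and 485 CPM in the libraries labelled siNC and 489, 497 and 482 CPM in those labelled siFBXL6. The second siNC library was the highest of the 6 and the first siNC library the lowest, so the siFBXL6 values all lay inside the siNC range. The means were 477 ± 46.8 and 489 ± 7.79 CPM (SD, n = 3 each), and the fitted log2 fold change was 0.037 (95% interval -0.045 to 0.12, edgeR adjusted p = 0.513). Without the second siNC library, the log2 fold change was 0.10 and passed the test (edgeR adjusted p = 0.0362), while over the alternatives tried it ran from -0.038 to 0.10. An antisense gene, RP4-536B24.2, covers 5.71% of the exon bases of SLC7A5, with 216 to 267 counts a library, and was not called.

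SLC3A2 (chr11:62856102-62888875, plus strand) had 363, 383 and 381 CPM in the libraries labelled siNC and 384, 409 and 407 CPM in those labelled siFBXL6. All 3 siFBXL6 values were above the siNC values, but the lowest of them, 384 CPM, was next to the highest siNC value, 383 CPM. The log2 fold change was 0.091 (95% interval 0.028 to 0.15, edgeR adjusted p = 0.0172). This call depended on the scaling and on single libraries. With upper-quartile factors the log2 fold change was 0.072 (adjusted p = 0.0657) and with library size alone 0.069 (adjusted p = 0.0672). Without the second siFBXL6 library it was 0.075 (adjusted p = 0.119) and without the third 0.080 (adjusted p = 0.106), and over all alternatives the adjusted p ran from 0.00747 to 0.119. Per length, the ratio of SLC7A5 to SLC3A2 in RPKM was 1.29, 1.48 and 1.39 in the libraries labelled siNC and 1.39, 1.33 and 1.29 in those labelled siFBXL6, so the ratio of light chain to heavy chain transcripts overlapped between the labels.

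System ASC, the exchanger of alanine, serine and cysteine, was represented by SLC1A5, a glutamine exchanger, and SLC1A4, which carries serine and other small neutral amino acids. SLC1A5 (chr19:46774883-46788594, minus strand) had 149.6, 141 and 148 CPM in the libraries labelled siNC and 171, 166 and 165 CPM in those labelled siFBXL6. The labels did not overlap, and the log2 fold change was 0.20 (standard error 0.0317, edgeR adjusted p = 4.39e-06). The gene CTB-147N14.6 on the opposite strand covers 23.4% of the exon bases of SLC1A5. It had 1043 to 1100 counts in the siNC libraries and 1157 to 1347 in the siFBXL6 libraries, against 8473 to 8747 and 9915 to 10363 for SLC1A5, and was itself higher (log2 fold change 0.15, edgeR adjusted p = 0.0338). If the counting did not use the strand, reads from the shared bases cannot be told apart.

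SLC1A4 (chr2:64988477-65023865, plus strand) had counts of 285, 284 and 326 under the siNC label and of 524, 566 and 596 under the siFBXL6 label. Scaled, these counts were 4.87, 4.597 and 5.68 CPM against 8.67, 9.37 and 9.89 CPM. Every siFBXL6 library was above every siNC library by more than the range within either label. The means of 5.05 ± 0.561 and 9.31 ± 0.614 CPM (SD, n = 3 each) gave a log2 fold change of 0.88 (95% interval 0.71 to 1.06, edgeR adjusted p = 3.17e-10), the highest among the called transporters of the 10. Its size exceeded that of 95.7% of all genes tested. SLC1A4 was nevertheless a small part of the system in transcripts: the ratio of SLC1A4 to SLC1A5 in RPKM was 0.0156 to 0.0185 in the siNC libraries and 0.0243 to 0.0289 in the siFBXL6 libraries. The RPKM of both genes together rose from 44.5 ± 1.45 to 51.5 ± 1.00 (SD, n = 3 each), as a sum with no test.

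System y+ takes up arginine, lysine and ornithine. Its widespread carrier SLC7A1 (chr13:29509410-29595688, minus strand) had 131, 131 and 131 CPM in the libraries labelled siNC and 141, 144 and 141 CPM in those labelled siFBXL6. The SD of the siNC libraries was 0.257 CPM, and the labels did not overlap. The log2 fold change was 0.11 (95% interval 0.053 to 0.17, edgeR adjusted p = 0.0024), a difference smaller in size than those of most genes tested. SLC7A2, the carrier known from liver and from activated macrophages (chr8:17497088-17570573, plus strand), was counted 633, 643 and 578 times against 693, 614 and 565 times. The first siFBXL6 library held the highest and the third the lowest CPM of all 6, so the labels overlapped. With 10.4 ± 0.379 and 10.3 ± 1.05 CPM (SD, n = 3 each) the log2 fold change was -0.014 (95% interval -0.16 to 0.14, edgeR adjusted p = 0.908).

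System A imports small neutral amino acids such as glutamine and alanine together with sodium, and SLC38A2 is its member known to be induced by amino acid shortage. SLC38A1 (chr12:46183063-46270017, minus strand) had 159, 162 and 157 CPM in the libraries labelled siNC and 193, 204 and 201 CPM in those labelled siFBXL6. The lowest siFBXL6 library, 193 CPM, lay well above the highest siNC library, 162 CPM. The log2 fold change was 0.32 (standard error 0.0310, edgeR adjusted p = 2.03e-10). For SLC38A2 (chr12:46358189-46372867, minus strand) the values were 135, 137 and 142 CPM against 184, 189 and 187 CPM, again without overlap. Its log2 fold change was 0.44 (95% interval 0.37 to 0.50, edgeR adjusted p = 9.56e-14). The genes are neighbours on the same strand, 88171 bases apart. Their RPKM summed to 36.8 ± 0.414 in the siNC libraries and 48.1 ± 0.987 in the siFBXL6 libraries (SD, n = 3 each), 1.31 times as much. The ratio of SLC38A2 to SLC38A1 in RPKM was 1.28 to 1.37 under siNC and 1.41 to 1.45 under siFBXL6.

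SLC1A3, a sodium-coupled importer of glutamate and aspartate best known from glia (chr5:36606355-36688334, plus strand), was the transporter that fell. Counts were 8639, 9029 and 8382 under the siNC label and 4636, 4508 and 4556 under the siFBXL6 label, or 148, 146 and 146 CPM against 76.7, 74.6 and 75.6 CPM. The SD within the labels was 0.956 and 1.01 CPM, and every siFBXL6 library was far below every siNC library. The log2 fold change was -0.95 (95% interval -1.02 to -0.89, edgeR adjusted p = 6.06e-23), and its size exceeded that of 96.4% of all genes tested. SLC1A3 provided 7.91 ± 0.348% of the summed RPKM of the 10 genes in the siNC libraries and 3.87 ± 0.0951% in the siFBXL6 libraries (SD, n = 3 each). Relative to SLC1A5, which belongs to the same gene family, its RPKM went from 0.535 ± 0.0156 to 0.241 ± 0.00342 (SD, n = 3 each).

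SLC6A14, a carrier of neutral and cationic amino acids driven by sodium and chloride (chrX:116436622-116461458, plus strand), had the fewest counts of the 10. Only 4, 11 and 6 counts fell on it under the siNC label and 12, 10 and 16 under the siFBXL6 label. The second siNC library lay among the siFBXL6 libraries, so the labels overlapped. The log2 fold change of 0.82 had a 95% interval from -0.18 to 1.83 (edgeR adjusted p = 0.197), so it was not called at this size and spread. With 1 library left out, its log2 fold change ran from 0.55 to 1.26, the highest without the second siNC library.

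Per length, the transporters spanned from 101 RPKM to 0.0259 RPKM in the libraries labelled siNC. The order of mean RPKM there was SLC7A5 (101 ± 9.87), SLC3A2 (72.5 ± 2.17), SLC1A5 (43.8 ± 1.41), SLC1A3 (23.4 ± 0.153), SLC38A2 (20.9 ± 0.500), SLC7A1 (17.0 ± 0.0334), SLC38A1 (15.9 ± 0.272), SLC7A2 (1.32 ± 0.0480), SLC1A4 (0.728 ± 0.0809) and SLC6A14 (0.0259 ± 0.0124), each with SD and n = 3. No neighbours in this order overlapped between their 3 libraries, although SLC7A1 was only 1.07 times SLC38A1. Among all genes tested, the mean RPKM of SLC7A5 over the 6 libraries stood at percentile 98.0, that of SLC3A2 at 97.1 and that of SLC1A5 at 95.1, while SLC1A4 stood at 33.6 and SLC6A14 at 1.10.

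The order was partly different under the other label. SLC1A3 stood at place 4 under siNC and at place 7 under siFBXL6 (12.1 ± 0.162 RPKM, SD, n = 3), below SLC38A2 (28.3 ± 0.411), SLC38A1 (19.9 ± 0.577) and SLC7A1 (18.4 ± 0.231). SLC1A4 (1.34 ± 0.0885) and SLC7A2 (1.31 ± 0.133) overlapped under siFBXL6, so their order does not hold beyond the spread. The pair SLC7A5 and SLC3A2 made up 58.4 ± 1.91% of the summed RPKM under siNC and 57.8 ± 0.427% under siFBXL6 (SD, n = 3 each). The sum over all 10 was 284, 305 and 299.6 RPKM against 309, 316 and 311 RPKM, and the lowest siFBXL6 library was only slightly above the highest siNC library.

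**Figure D2:**
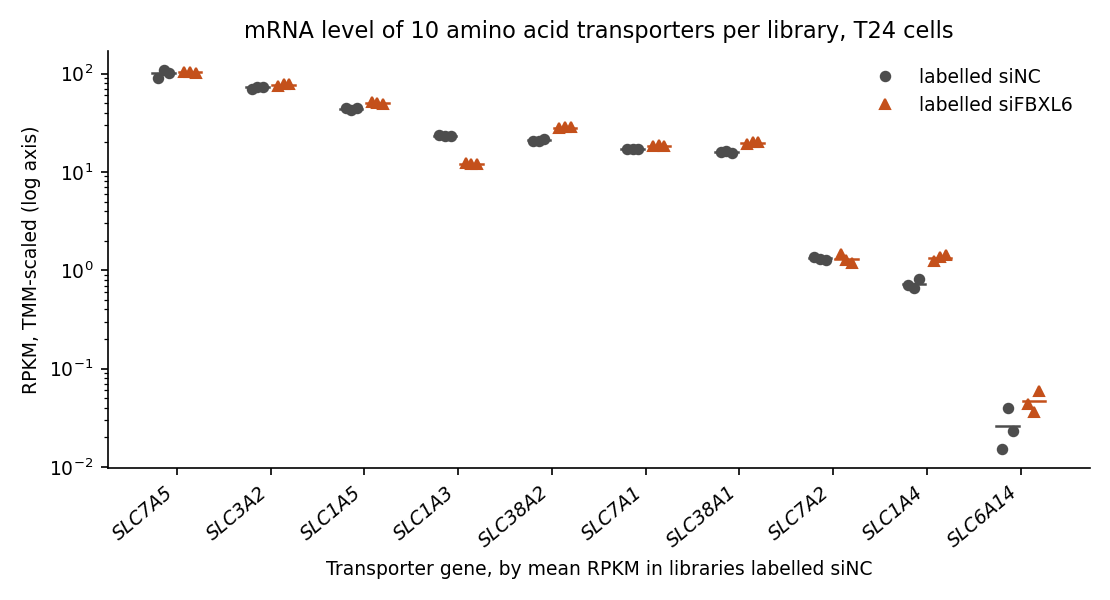
RPKM of the 10 transporters in each library on a log axis, ordered by the mean of the libraries labelled siNC; circles are siNC, triangles siFBXL6 and bars the means of 3. SLC7A5, SLC3A2 and SLC1A5 are the 3 most abundant under both labels, and SLC1A3 falls from 23.4 to 12.1 RPKM past 3 other genes.

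Since 6 of the transporters were higher together, their promoters were searched for short motifs. RefSeq gives 17 windows, from 250 bases before to 50 after a start of transcription (GRCh38.p14), for 9 of the 10 genes, some with several starts; SLC7A2 was not matched. The core of the C/EBP-ATF response element, TGATGNAA, the E-box CACGTG and the AP-1 site TGANTCA were searched on both strands, and no matches in the 17 windows overlapped each other. TGATGNAA was found in 6 of the 17 windows, 1 each of SLC3A2, SLC1A5, SLC1A4, SLC7A1, SLC38A1 and SLC1A3. It was found in 3.62% of all 35116 windows of the table and in 2.12% of the 17058 windows of tested genes. These shares are per window, and some of the genes have several windows. Of the genes with the letters, 5 were called higher and 1, SLC1A3, was called lower, where 20.5% and 19.8% of all genes tested were. Of the matched genes without the letters, SLC38A2 was also called higher, and SLC7A5 and SLC6A14 were not called. A link between the letters and the calls was not tested, and the search was made because of these calls. The 60 bases around each match are shown to compare these sites, 5′ to 3′ on the strand of the gene (minus for SLC1A5, SLC7A1 and SLC38A1, plus for the others; RefSeq, GRCh38.p14), with the match in capitals:
SLC3A2 (chr11:62881689-62881748): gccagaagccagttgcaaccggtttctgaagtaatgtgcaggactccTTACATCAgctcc
SLC1A5 (chr19:46784878-46784937): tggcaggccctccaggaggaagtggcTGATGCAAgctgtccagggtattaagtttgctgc
SLC1A4 (chr2:64989366-64989425): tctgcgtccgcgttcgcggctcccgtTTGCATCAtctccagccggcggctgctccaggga
SLC7A1 (chr13:29595648-29595707): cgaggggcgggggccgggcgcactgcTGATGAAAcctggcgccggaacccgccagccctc
SLC38A1 (chr12:46266487-46266546): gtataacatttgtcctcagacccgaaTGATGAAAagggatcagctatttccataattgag
SLC1A3 (chr5:36596342-36596401): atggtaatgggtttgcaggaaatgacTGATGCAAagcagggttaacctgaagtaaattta

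In SLC3A2 and SLC1A4 the match lies on the opposite strand, so the capitals show its reverse complement. Its first base lies 38 bases from the start in SLC3A2 and 8 in SLC7A1, both downstream, and at -4 in SLC38A1, -7 in SLC1A4, -97 in SLC1A5 and -220 in SLC1A3. SLC3A2, SLC1A5, SLC1A4, SLC38A1 and SLC1A3 each have further windows without these letters. The starts are those of RefSeq. The matches of SLC3A2, SLC1A5, SLC1A4, SLC7A1 and SLC38A1 lie downstream of the first base of the gene as counted. That of SLC1A3 lies upstream of the gene as counted. Which start was used in these cells was not tested. SLC38A2 had none of the 3 motifs in its only window, and SLC7A5 had a CACGTG at -130. CACGTG was also found in 1 window of SLC1A5, so in 2 of the 17 windows, against 9.06% of windows of tested genes. TGANTCA was found in 4, those of SLC3A2 (-37), SLC38A1 (-57), SLC1A3 (-128 and -26) and SLC6A14 (-216), against 5.80%. A match describes letters in a window, and binding was not measured.

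Beside the 10, 31 other plasma membrane amino acid transporters were listed, of which 18 could be tested, 13 had too few counts and 6 of those had none. Of the 18, 4 were called higher and 6 called lower under the siFBXL6 label, where 20.5% and 19.8% of all genes tested were, with a median log2 fold change of 0.064. SLC7A11, the cystine and glutamate exchanger that also pairs with SLC3A2, had 61.2, 63.4 and 61.0 CPM in the siNC libraries and 83.5, 84.7 and 83.7 CPM in the siFBXL6 libraries. The labels did not overlap, and its log2 fold change was 0.44 (standard error 0.0325, edgeR adjusted p = 2.94e-13). SLC43A1, a uniporter of large neutral amino acids, was higher (log2 fold change 0.47, edgeR adjusted p = 0.000415) and its relative SLC43A2 was lower (-0.50, edgeR adjusted p = 0.000226). SLC6A6 and SLC36A4, named after their values were seen, were higher at 0.15 and 0.14, but the values of SLC36A4 overlapped between the labels (edgeR adjusted p = 0.0368).

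Lower values were found for SLC1A1, a glutamate and aspartate importer of the same family as SLC1A3. It had 8.33, 8.85 and 9.004 CPM in the siNC libraries and 7.09, 5.80 and 7.15 CPM in the siFBXL6 libraries, a log2 fold change of -0.39 (edgeR adjusted p = 0.000307). SLC7A8, SLC38A5 and SLC16A10, named after their values were seen, were also lower, at -0.16, -0.29 and -0.55 (edgeR adjusted p = 0.00293, 0.0137 and 0.0107). SLC38A4, a relative of SLC38A1, fell at low level from 1.73, 1.44 and 1.78 CPM to 0.777, 1.06 and 1.23 CPM (log2 fold change -0.69, edgeR adjusted p = 0.0042), the only one of the 18 called with at least 1.5-fold; without the first siFBXL6 library its log2 fold change was -0.52, which is under 1.5-fold. Of the lysosomal amino acid transporters 8 of 9 were tested, and 2 were higher and none lower (25.0% called against 40.2% of all genes, median 0.15). SLC36A1 rose from 3.38 to 4.92 CPM (log2 fold change 0.54, edgeR adjusted p = 1e-04) and the cystine exporter CTNS from 2.97 to 3.67 CPM (0.30, edgeR adjusted p = 0.0339). The call of CTNS was lost with DESeq2, without a filter, and when any of 4 of the 6 libraries was left out; over all alternatives its adjusted p ran from 0.0329 to 0.119. SLC38A7 and SLC15A4, with log2 fold changes of 0.19 and 0.15, did not pass.

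Transporter genes share regulators with other genes that respond to amino acid shortage. Of 30 such genes, all tested, 20 were called higher and 6 called lower (86.7% called against 40.2% of all genes), with a median log2 fold change of 0.16 against -0.0071 over all genes. The median size was 0.24 against 0.18 over all genes. PPP1R15A, which recruits the phosphatase of eIF2α, had 1066, 999.7 and 1016 CPM in the siNC libraries and 1622, 1618 and 1596 CPM in the siFBXL6 libraries. Its log2 fold change was 0.65 (standard error 0.0278, edgeR adjusted p = 1.75e-19). ASNS, the asparagine synthetase, had 49.6, 47.4 and 52.5 CPM against 68.3, 66.6 and 68.5 CPM (log2 fold change 0.44, edgeR adjusted p = 6.14e-12). CEBPG and the serine synthesis gene PSAT1 were higher at 0.34 and 0.43. ATF4 itself, named after its value was seen, was 254 against 281 CPM (log2 fold change 0.15, edgeR adjusted p = 9.19e-05). The list did not move in 1 direction: PHGDH, the first enzyme of serine synthesis, and ATF3, both also named after their values were seen, were lower at -0.23 and -0.30.

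**Figure D3:**
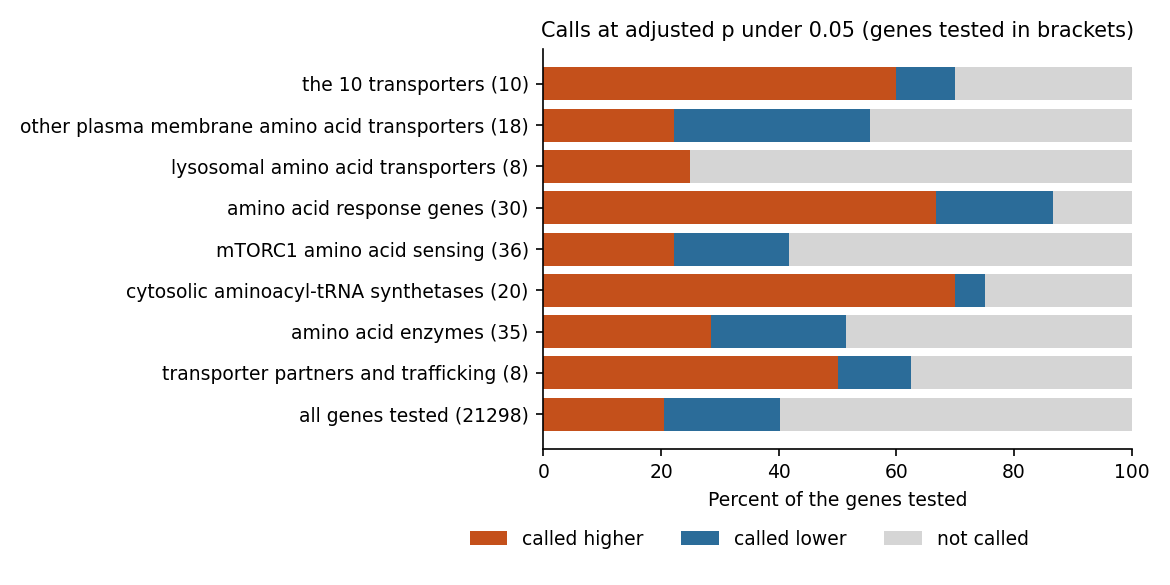
Share of the genes tested in each list that were called higher (orange) or lower (blue) in the libraries labelled siFBXL6, or not called (grey), at an adjusted p under 0.05, with the number tested in brackets. The 10 transporters (6 higher, 1 lower), the response genes (20 and 6) and the aminoacyl-tRNA synthetases (14 and 1) have more higher than lower calls. So do the partners (4 and 1), lysosomal transporters (2 and 0), enzymes (10 and 8) and mTORC1 genes (8 and 7). The other plasma membrane transporters have 4 higher and 6 lower, and all genes tested divide into 20.5% and 19.8%. The lists were chosen with earlier results of these data known.

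The cytosolic aminoacyl-tRNA synthetases load amino acids onto tRNA. All 20 were tested, and 14 were higher and 1 lower (75.0% called against 40.2% of all genes, median log2 fold change 0.18). The median size was 0.184 against 0.182 over all genes tested, so by median these changes were about as large as elsewhere. The leucine enzyme LARS had 136, 134 and 132 CPM in the libraries labelled siNC and 193, 198 and 194 CPM in those labelled siFBXL6. It did not overlap between labels (log2 fold change 0.54, standard error 0.0302, edgeR adjusted p = 2.19e-16). TARS, GARS and NARS were higher at 0.31, 0.30 and 0.28, and FARSA, named after its value was seen, was the one lower at -0.15.

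Of the 36 genes through which amino acids reach mTORC1, all tested, 8 were higher and 7 lower (41.7% called, close to the 40.2% of all genes, median 0.020). The Rag GTPases RRAGC and RRAGD were higher at log2 fold changes of 0.37 and 0.24, as was KICS2, listed as C12orf66, at 0.65, and MLST8 was lower at -0.36. Among the 36 enzymes of amino acid metabolism 35 were tested, with 10 higher and 8 lower (51.4% called against 40.2% of all genes, median -0.082), though the number lower was 5 with DESeq2 and 4 to 9 with 1 library left out. KYNU, of the kynurenine pathway, rose from 109 to 182 CPM (log2 fold change 0.74, edgeR adjusted p = 1.97e-19). GLUL, the glutamine synthetase, had 183, 178 and 183 CPM against 128, 132 and 136 CPM, a log2 fold change of -0.46 (standard error 0.0310, edgeR adjusted p = 3.23e-14). ODC1 and GPT2 were higher at 0.35 and 0.33.

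Partners and regulators of transporters at the membrane were listed as 8 genes, of which 4 were higher and 1 lower, where 20.5% and 19.8% of all genes were (median 0.25). NEDD4L, a ubiquitin ligase that removes several transporters and channels from the cell surface, had 103, 106 and 101 CPM in the libraries labelled siNC and 202, 194 and 196 CPM in those labelled siFBXL6. Its labels were far apart, and the log2 fold change was 0.93 (standard error 0.0315, edgeR adjusted p = 2.74e-22). CD44, a surface glycoprotein known to stabilise SLC7A11, had 354, 345 and 355 CPM against 591, 585 and 610.1 CPM (log2 fold change 0.76, edgeR adjusted p = 6.95e-21). The ligase NEDD4 and the kinase SGK1 were higher at 0.35 and 0.45, and LAPTM4B, which takes the SLC7A5 pair to lysosomes and was named after its value was seen, was lower at -0.15. Transcripts say nothing of the amount of transporter at the surface, which was not measured.

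Genes with the most similar profile were sought by Euclidean distance of mean-centred log2 CPM over the 6 libraries. The pool was 141 genes, those tested with a mean CPM of 1 or more in the lists without the cell type markers. For SLC7A5 these were RHEB (distance 0.135), ASL (0.139) and RRAGA (0.148), none of which was called. SLC1A4 was nearest to CD44 (0.270), KYNU (0.287) and VLDLR (0.321), all of them higher in the libraries labelled siFBXL6. Nearest to SLC1A3 were NUPR1 (0.476), SLC43A2 (0.588) and GLUL (0.610), with log2 fold changes of -0.62, -0.50 and -0.46. None of the 141 genes came as close to SLC1A3, at a log2 fold change of -0.95, as those named came to SLC7A5 and SLC1A4. SLC1A4 and SLC1A3 were picked by their fold changes, and the distance depends on the fold change between labels. That their neighbours moved the same way is therefore no separate result.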

How the data were processed

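RNA from 6 samples of T24 cells (2 μg each) was made into libraries with a stranded mRNA kit. The authors deposited 1 table of raw counts per gene, without normalization. Their text names Trimmomatic, HISAT2 on GRCh38 and featureCounts, whereas the submitters' processing notes name fastp 0.23.0, STAR and featureCounts of Subread 1.5.1; the annotation release and the strand setting are not given in the sources used here.

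Genes were filtered with filterByExpr, scaled with TMM and tested with edgeR 4.0.16 (limma 3.58.1, R 4.3.3), with the label as the only term and p-values adjusted over 21298 genes. DESeq2 1.42.0 was an alternative, beside other scalings, other filters, the replicate block and each library left out. Intervals are 95% intervals from the standard error. The steps were tested on simulated data. RPKM divides TMM-scaled CPM by summed exon length. Promoter windows are those of RefSeq on GRCh38.p14.

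The 10 members and the 11 gene lists (210 genes, 23 matched by an older or alternative name) were chosen with earlier results of these data known. Named genes are the members, FBXL6, GAPDH and ACTB, of each list the 4 with the smallest adjusted p (tested, mean CPM 1 or more), of the other transporters also those called with at least 1.5-fold, and the 3 nearest in profile to SLC7A5 and to the called members with the highest and the lowest fold change. Exceptions are marked in the text, except that genes sharing exon bases were taken by position, and the most abundant marker of a list and markers with too few counts to test after their values were seen.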

Additional observations from a re-analysis of the deposited data

How the results depend on the processing

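The 10 transporters were refitted under 13 alternatives, and 124 of the 129 values left the call as it was. The other 5 were 4 lost calls of SLC3A2 and the call of SLC7A5 without the second siNC library, given above with their values. SLC6A14 had too few counts for the filter of 10 counts in every sample. None of the called transporters changed sign. The number called was 6 with upper-quartile factors or library size alone and 6 to 8 with 1 library left out, and the number called with at least 1.5-fold was 2 under each alternative. Over all genes, 7015 were called with DESeq2 and 7451 to 8298 with 1 library left out. FBXL6 was not called under any alternative (log2 fold change -0.20 to -0.092, adjusted p 0.112 to 0.521).

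Of the list counts, other plasma membrane transporters called higher and lower were 3 and 4 with DESeq2; those called higher were 3 with upper-quartile factors, 3 with library size alone and 3 to 4 with 1 library left out, and those called lower 5 to 6. Lysosomal transporters called higher were 1 with DESeq2, 1 without a filter and 1 to 2 with 1 library left out. Synthetases called lower were 2 with upper-quartile factors and 2 with library size alone. Enzymes called lower were 5 with DESeq2 and 4 to 9 with 1 library left out. The cause was not tested. With the replicate number as a replicate block, 8408 genes and 7 of the 10 transporters were called. Same-numbered libraries did not deviate together (correlations -0.011, 7.99e-05 and 0.013), so the numbers were not read as pairs. Ordered by CPM instead of RPKM over the 6 libraries, 4 of the 10 transporters changed place. SLC1A5 went from 3 to 5 and SLC38A1 from 5 to 3, but by mean RPKM SLC38A1 stood at 7 under siNC and at 5 under siFBXL6. SLC7A1 (place 7 to 6) and SLC1A3 (6 to 7) were tied at 17.74 RPKM over labels in which the level of SLC1A3 differs, so their exchange carries no meaning. SLC6A14 had only 4 to 16 counts a library, and the libraries are 3 a label of 1 cell line.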
